A study of Mus musculus with 9 samples.

Results

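The genes examined here are the 3844 protein-coding genes that reached at least 20 FPKM in each of the 3 N134 subcutaneous tumours, out of 21944 genes in the deposited table. FPKM (fragments per kilobase of transcript per M, or mega, mapped fragments) is a level corrected for transcript length and library size. The levels of these genes in 3 liver metastases of the N134-RHAMMB line were compared with their levels in the 3 N134 tumours. The floor leaves out most transcripts that come only from liver, and it was set on the N134 tumours alone. A gene low in N134 tumours could therefore not enter however high it stood in metastases: 278 of the 3569 genes at 20 FPKM or more in all 3 metastases are not among the 3844. The split of the counts below into higher and lower is in part set by that choice and is a description.

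N134 is a mouse cell line from a pancreatic neuroendocrine tumour. N134-RHAMMB is the derived line that takes its name from RHAMMB, a form of RHAMM, the receptor for hyaluronan and product of Hmmr. Both lines were grown in NSG mice (NOD.Cg-PrkdcscidIl2rgtm1Wjl/SzJ), a host without mature B, T or natural killer cells that keeps macrophages, fibroblasts, vessels and liver cells of its own. The 3 groups of 3 libraries are N134 tumours under the skin (numbered 1, 2 and 3), N134-RHAMMB tumours under the skin (1, 2 and 4) and N134-RHAMMB liver metastases after tail vein injection (1, 2 and 3). No source used here gives the hosts' age or the species of the construct. Metastases and N134 tumours thus differ in line, in site and in route of injection, and the part of each in a difference cannot be told apart by this comparison. The N134-RHAMMB tumours share the line with metastases and the site with N134 tumours, so their values are given beside the rest. The labels do not say that the libraries of a group came from separate animals, so p-values here reflect the spread among the libraries alone, possibly a technical one.

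Pancreatic neuroendocrine tumours of the beta-cell type keep much of the program of the islet: they make prohormones, cut them in dense-core granules together with granins, and release peptides such as insulin and amylin. Their cells live under a load of protein folding and oxidation, which chaperones of the endoplasmic reticulum and enzymes of glutathione and thioredoxin metabolism handle. A tumour grown in a mouse also holds host stroma, and RNA of tumour and host is read together, because both are mouse.

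The levels that moved farthest down and farthest up belonged to Gip, Ccl8, Mfap5 and Gstm1, and the bases upstream of their start sites are shown for the 3 with an entry in the RefSeq promoter table, to place these genes in the genome (GRCm38.p6, 250 bases before the start, 5′ to 3′ on the gene's strand). Capitals mark exact matches to TATAAA (the core of a TATA box) or to CCAAT, searched on both strands, so that ATTGG is CCAAT on the other strand. Gip lies on the plus strand at chr11:96024295-96024544 and Ccl8 on the plus strand at chr11:82114935-82115184. For Gstm1, on the minus strand, the window of the downstream of its start sites is shown, chr3:108017819-108018068.
Gip: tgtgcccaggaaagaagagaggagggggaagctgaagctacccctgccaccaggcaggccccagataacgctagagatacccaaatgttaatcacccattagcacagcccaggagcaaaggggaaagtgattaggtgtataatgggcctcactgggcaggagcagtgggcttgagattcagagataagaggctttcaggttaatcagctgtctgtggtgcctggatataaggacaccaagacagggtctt
Ccl8: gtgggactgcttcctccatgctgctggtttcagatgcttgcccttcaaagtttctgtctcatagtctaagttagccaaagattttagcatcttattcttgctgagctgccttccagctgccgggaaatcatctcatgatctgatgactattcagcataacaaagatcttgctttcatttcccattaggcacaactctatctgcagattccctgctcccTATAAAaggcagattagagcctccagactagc
Gstm1: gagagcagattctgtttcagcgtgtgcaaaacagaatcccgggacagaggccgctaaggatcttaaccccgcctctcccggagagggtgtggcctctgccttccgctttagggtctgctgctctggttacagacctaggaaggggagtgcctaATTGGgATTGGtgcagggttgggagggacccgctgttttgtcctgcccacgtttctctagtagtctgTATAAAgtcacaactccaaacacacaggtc
TATAAA stood 32 bases before the start of Ccl8 and 30 before that of Gstm1, and the Gip window held neither motif. Of the 3844 genes, 3001 matched the table by symbol. TATAAA was in 5.74% of their windows, in 4.55% of those of genes higher in metastases, in 8.19% of those of genes lower, and in 12.4% of all windows in the table. For CCAAT the shares were 38.5%, 43.9%, 46.2% and 33.9%. For TGANTCA, the AP-1 site, they were 3.99%, 10.6% (7 of 66 windows), 6.43% and 6.75%, and none of the windows shown holds it. A match is a run of letters and not a shown binding site.

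The libraries held an estimated 14.6 to 18.4 M fragments, at which 20 FPKM in a transcript of 2 kb stands for 585 to 736 fragments, so the levels in N134 tumours rest on many fragments. The 3844 genes took 82.6% to 83.8% of all FPKM in N134 tumours, 79.9% to 80.9% in metastases and 81.6% to 84.1% in tumours of N134-RHAMMB. On log2 levels, Pearson's r across the 3844 genes, which are not independent, was 0.984 to 0.986 between N134 tumours, 0.974 to 0.986 between N134-RHAMMB tumours and 0.918 to 0.974 between metastases. Metastasis 2 was the highest or the lowest of the 3 metastases in 81.0% of the genes, metastasis 1 in 56.3% and metastasis 3 in 62.8%. Some counts below are given with and without it, but most single genes only with it. Of the genes described below as not passing, some did pass in limma without it. These were Nnat, Pcsk2, Mafa, Rfx6, Isl1, Cd9, Rpl13a and Hsp90aa1. The labelled tissues were checked on marker lists: 44 hepatocyte genes summed to 10057 to 10889 FPKM in metastases against 856 to 934 in N134 and 834 to 1048 in N134-RHAMMB tumours. The metastases therefore held liver RNA, and Ins2, Iapp and the islet transcription factors described below were read in every library. Hmmr, the mouse gene of RHAMM, differed by -0.09 between metastases and N134 tumours on the log2 scale (SE 0.10, limma adjusted p = 0.708). Whether its value includes the construct is not known here, so it does not check the labels.

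Most of the 3844 genes stood at nearly the same level in metastases as in N134 tumours. The difference in log2(FPKM + 1) was within 0.5 in 3566 genes (92.8%) and within 1 in 98.3%, with a median of -0.06 beside -0.03 over all 12854 genes tested. In limma, at an adjusted p below 0.05 over all genes tested, 244 genes passed (6.35%, where the background over all genes tested was 9.93%). Of these, 58 were higher in metastases (1.51%, background 5.69%) and 186 lower (4.84%, background 4.23%). All 244 had groups without overlap, as had 922 of the 3844 genes (24.0%, background 25.7%). Among the 58 the median difference was 0.66 and 11 rose by at least 1, and among the 186 the median was -0.61 and 44 fell by at least 1. Without metastasis 2 the counts were 108 higher and 268 lower, and 210 of the 244 kept their call and direction.

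**Figure D1:**
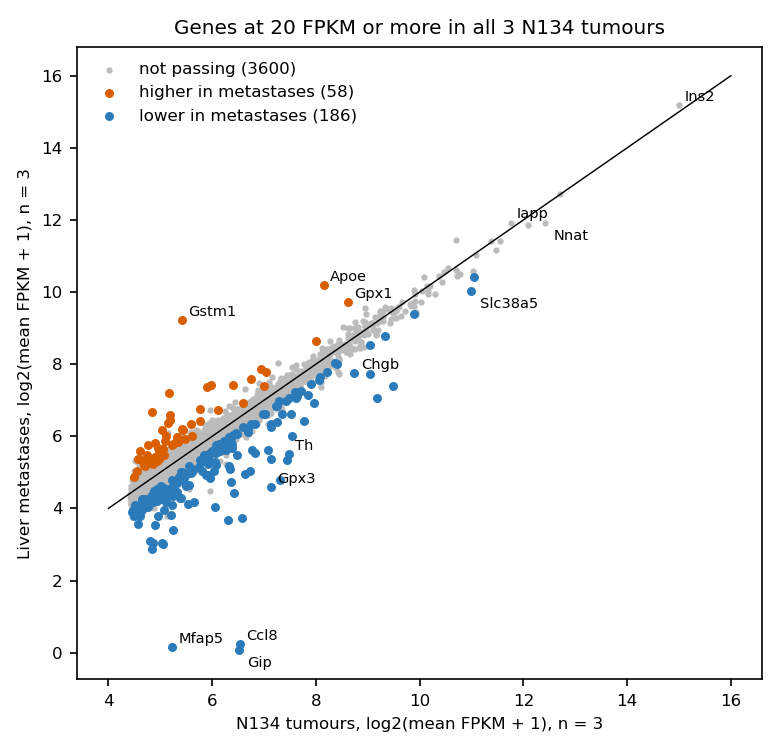
Mean level of each of the 3844 genes in N134 tumours (x axis) and in liver metastases (y axis), both as log2(mean FPKM + 1) over 3 libraries, with the line of equal levels. The cloud lies along the line up to Ins2, with 58 genes that passed above it (orange), 186 below it (blue), and Gip, Ccl8 and Mfap5 near 0 in metastases.

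The split depends on where the floor is set. With the floor in all 3 N134-RHAMMB tumours it gave 65 higher and 153 lower among 3806 genes, and with a mean of at least 20 FPKM over all 9 libraries it gave 122 higher and 172 lower among 4272. Scaling the libraries by median-of-ratios factors taken over the 3844 genes gave 92 higher and 141 lower, so the share of higher calls moved from 23.8% to 39.5%. Nearest inside the floor were Mgrn1 (lowest N134 value 20.0012 FPKM), S100a4 (20.0024) and Mms19 (20.0033). Nearest outside were Mtmr9 (19.9881), Gcdh (19.9855) and Cib1 (19.9766). Gcdh, an enzyme of lysine breakdown, stood at 36.1, 36.6 and 40.6 FPKM in metastases and is not among the genes counted.

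Of 13 islet peptide and granin genes, none rose and 2 fell in limma, Gip and Chgb, with 3 lower and none higher at an unadjusted p under 0.05. The median difference of the list was -0.29, beside -0.06 over the 3844 genes, and 8 of the 13 differences were below 0. The 5 most abundant of the 3844 genes in N134 tumours did not pass. Ins2 encodes insulin, and N134 tumours held 33317, 30636 and 34119 FPKM of it beside 34621, 38131 and 38504 FPKM in metastases (log2 difference 0.18, SE 0.19, adjusted p = 0.653). Sepp1, the plasma selenoprotein P, differed by 0.01 (adjusted p = 0.986). Iapp, which encodes amylin, differed by 0.01 on average, but its metastases were far apart at 3139, 6492 and 2050 FPKM. Npy, which encodes neuropeptide Y, spread likewise over 3804, 1406 and 6009 FPKM in metastases (-0.44, SE 0.42, adjusted p = 0.626). Nnat, which encodes the small membrane protein neuronatin, was the nearest to a call: 5686, 5021 and 5736 FPKM against 3212, 3992 and 4294 FPKM (-0.52, SE 0.15, adjusted p = 0.0514), with groups that did not overlap. N134-RHAMMB tumours held 6641, 6056.5 and 5670.5 FPKM of Nnat, and metastases were lower than these (-0.68, limma adjusted p = 0.0178). For Ins2 too the groups did not overlap, and N134-RHAMMB tumours held 22775, 28390 and 21154 FPKM of it.

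Gip, which encodes the incretin glucose-dependent insulinotropic polypeptide, had the largest difference of the 3844 genes (ENSMUSG00000014351, chromosome 11, 96024545 to 96030831). N134 tumours held 89.9, 95.8 and 85.1 FPKM of it and N134-RHAMMB tumours 6.05, 3.79 and 0.759 FPKM. Metastasis 1 held 0.135 FPKM, and metastases 2 and 3 were listed at 0. The 3 groups did not overlap. On the log2(FPKM + 1) scale, which understates changes of low genes, metastases differed from N134 tumours by -6.45 (SE 0.40, adjusted p = 1.04e-06). The step from N134-RHAMMB tumours to metastases was -1.90 (adjusted p = 0.0146), and that between the lines under the skin -4.55 (adjusted p = 0.00539). Chgb, which encodes the granule protein chromogranin B, fell from 426, 402 and 454 to 254, 232 and 159 FPKM (-1.01, SE 0.19, adjusted p = 0.00697). Its N134-RHAMMB tumours were at 611, 419 and 626 FPKM, none of them below the lowest N134 tumour.

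Other peptide genes were scattered among metastases. Cck, which encodes cholecystokinin, was at 287, 280 and 251 FPKM in N134 tumours against 345, 44.8 and 157 FPKM in metastases (-1.01, SE 0.54, adjusted p = 0.333). Gast encodes gastrin, and N134 tumours held 22.4, 22.7 and 22.2 FPKM of it and N134-RHAMMB tumours 89.2, 79.3 and 57.3 FPKM. Metastases held 23.8, 2.09 and 22.6 FPKM, a difference of -2.62 from N134-RHAMMB tumours (adjusted p = 0.0354) and of -0.94 from N134 tumours (adjusted p = 0.458). In both genes metastasis 2 was far below the other 2. Th, which encodes tyrosine hydroxylase, the first enzyme of catecholamine synthesis, fell from 130, 170 and 233 to 44.8, 28.7 and 59.2 FPKM (-2.003, SE 0.27, adjusted p = 0.000561). Its N134-RHAMMB tumours, at 132, 95.3 and 111 FPKM, overlapped with the N134 tumours, and metastases were also lower than these (-1.38, adjusted p = 0.00885).

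The machinery that makes, cuts and releases these peptides showed few calls. Of 24 prohormone processing and granule genes, Rab3a alone rose and Scgn alone fell, with a median of 0.01. Rab3a, a small GTPase of granule release, was at 38.2, 38.1 and 33.2 FPKM in N134 tumours against 59.2, 45.8 and 54.9 FPKM in metastases (0.53, SE 0.12, adjusted p = 0.0184). That call was lost without N134 tumour 3, metastasis 1 or metastasis 3 (adjusted p up to 0.0842). Scgn, which encodes the calcium-binding protein secretagogin, fell from 149, 137 and 166 to 69.2, 104 and 77.7 FPKM (-0.86, SE 0.14, adjusted p = 0.0029), with N134-RHAMMB tumours at 99.7, 93.8 and 88.3 FPKM. Slc2a2, which encodes the glucose transporter GLUT2, ran from 12.9 to 168 FPKM among metastases against 120 to 155 FPKM in N134 tumours (-1.34, adjusted p = 0.309). Pcsk2, which encodes a prohormone convertase, differed by 0.56 (adjusted p = 0.0956). Without metastasis 2, 5 of the 24 were higher and 2 lower.

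None of the 14 islet transcription factors above the floor passed in limma, and 3 had an unadjusted p under 0.05 (1 higher and 2 lower, median -0.03). Mafa, an activator of the insulin gene, was at 50.045, 39.9 and 33.4 FPKM in N134 tumours against 69.6, 52.0 and 83.5 FPKM in metastases (0.71, SE 0.20, adjusted p = 0.0545). Rfx6 was at 41.5, 32.9 and 39.9 against 21.3, 32.7 and 24.1 FPKM (-0.55, adjusted p = 0.0574). Isl1, a LIM homeobox factor, lay between 76.2 and 81.8 FPKM in N134 tumours and was at 42.7, 104 and 29.2 FPKM in metastases (-0.62, adjusted p = 0.369), and Pax6 differed by -0.31 (adjusted p = 0.218). Both Mafa and Rfx6 had groups that did not overlap, while those of Isl1 and Pax6 did overlap. Without metastasis 2, 1 of the 14 was higher and 2 lower.

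Of 23 genes for proinsulin folding and the unfolded protein response, 1 rose and 1 fell (median 0.21). Ero1lb, the endoplasmic reticulum oxidase of pancreatic cells, fell from 93.1, 71.5 and 74.9 to 51.2, 45.6 and 55.6 FPKM (-0.64, SE 0.12, adjusted p = 0.00741). Its N134-RHAMMB tumours were as low, at 42.6, 47.2 and 42.9 FPKM, and were lower than N134 tumours too (-0.83, adjusted p = 0.0365). Dnajc3, a co-chaperone that restrains the kinase PERK, rose from 33.1, 28 and 33.3 to 44.2, 42.7 and 40.6 FPKM (0.43, SE 0.11, adjusted p = 0.0298). It lost the call without any of the N134 tumours, N134-RHAMMB tumour 1 or metastasis 1 (adjusted p up to 0.127). Dnajb9, another co-chaperone, differed by 0.43 (adjusted p = 0.201), and the protein disulfide isomerase Pdia6 by 0.37 (adjusted p = 0.058).

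**Figure D2:**
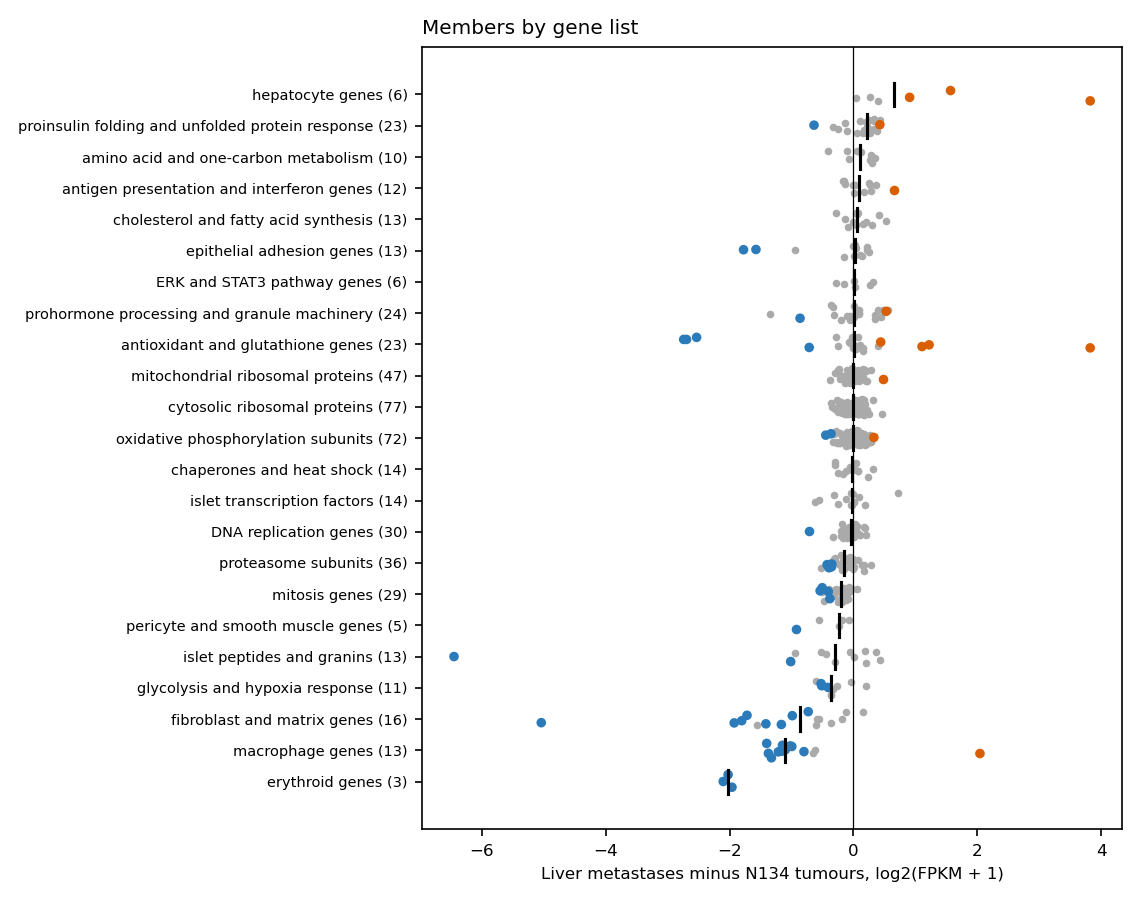
Difference between metastases and N134 tumours in log2(FPKM + 1) for every gene at 20 FPKM in all 3 N134 tumours, by gene list (number of such genes in parentheses; lists with at least 3). Each point is a gene, orange where it rose, blue where it fell and grey where it did not pass, and the black bar is the list's median. Most lists centre near 0. Erythroid (-2.02), macrophage (-1.10) and fibroblast and matrix genes (-0.86) lie farthest to the left, and hepatocyte genes (0.65) farthest to the right.

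Antioxidant and glutathione genes above the floor moved in opposite directions. Of 23 above the floor, 4 rose and 4 fell, with a median of 0.01. That balance holds only above the floor. Under it, Mgst1 (3.91), Gsta4 (2.46), Cat (2.35), Gclc (0.91) and Prdx6 (0.81) of the same list were higher in metastases in limma. Mgst3 (0.42), also under the floor, did not pass. Gstm1 and Gstp1 are glutathione S-transferases, and Gpx1, Gpx2 and Gpx3 are glutathione peroxidases. Gpx1 rose from 372, 446 and 356 to 722, 861 and 950 FPKM (1.11, SE 0.13, adjusted p = 0.000289), with N134-RHAMMB tumours at 460, 395 and 383 FPKM. Gpx3, the plasma form, fell from 152, 165 and 99.4 to 40.2, 11.4 and 17.4 FPKM (-2.70, SE 0.47, adjusted p = 0.00383), with N134-RHAMMB tumours at 137, 44.0 and 99.3 FPKM. Gpx2, the gastrointestinal form, fell from 201, 188 and 130 to 66.9, 7.32 and 44.5 FPKM (-2.53, SE 0.64, adjusted p = 0.032). The 3 peroxidase genes thus did not move together, and for Gpx2 and Gpx3 metastasis 2 was the lowest library. The Gpx2 call was lost without any of the N134 tumours (adjusted p up to 0.115), and Gpx2 overlaps the coding gene Fntb.

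Gstm1 (ENSMUSG00000058135, chromosome 3, 108012255 to 108017973) had the largest rise of the 3844 genes. N134 tumours held 39.98, 48.5 and 36.3 FPKM, N134-RHAMMB tumours 63.8, 50.6 and 70.7 FPKM and metastases 514, 653 and 636 FPKM. The difference from N134 tumours was 3.82 (SE 0.15, adjusted p = 3.76e-08) and from N134-RHAMMB tumours 3.27 (adjusted p = 1.27e-07). Gstm1 is also on the hepatocyte list, and reads of the near-identical Gstm genes may be divided among them. For Gstp1, N134 tumours held 39.5, 32.2 and 31.9 FPKM, N134-RHAMMB tumours 63.9, 42.2 and 56.0 FPKM and metastases 79.6, 72.6 and 93.5 FPKM (1.22, SE 0.16, adjusted p = 0.000569). Its N134-RHAMMB tumours lay above every N134 tumour and below every metastasis.

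Hmox1, which encodes the inducible haem oxygenase, fell from 77.1, 162 and 42.5 to 18.3, 5.79 and 13.2 FPKM (-2.74, SE 0.50, adjusted p = 0.00507), with N134-RHAMMB tumours at 37.0, 23.6 and 53.0 FPKM. Nqo1, a quinone reductase, fell from 88.8, 76.5 and 80.7 to 60.6, 50.4 and 39.7 FPKM (-0.71, adjusted p = 0.00976), a call lost without N134 tumour 1 (adjusted p = 0.0503). Srxn1, which encodes sulfiredoxin, rose from 31.9, 28.4 and 28.5 to 38.8, 38.6 and 44.3 FPKM (0.44, adjusted p = 0.0432), a call lost in 6 of 9 settings with 1 library left out (adjusted p up to 0.147). Nqo1 and Srxn1 were singled out after their values were seen. All 3 are known targets of the stress-responsive factor NRF2, and Hmox1 is high in macrophages that clear red cells. Hmox1 was highest in N134 tumour 2, which was also the library with the highest summed macrophage and erythroid levels (2075 FPKM without Apoe and 1947 FPKM). The part of host cells in the Hmox1 difference was not tested.

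**Figure D3:**
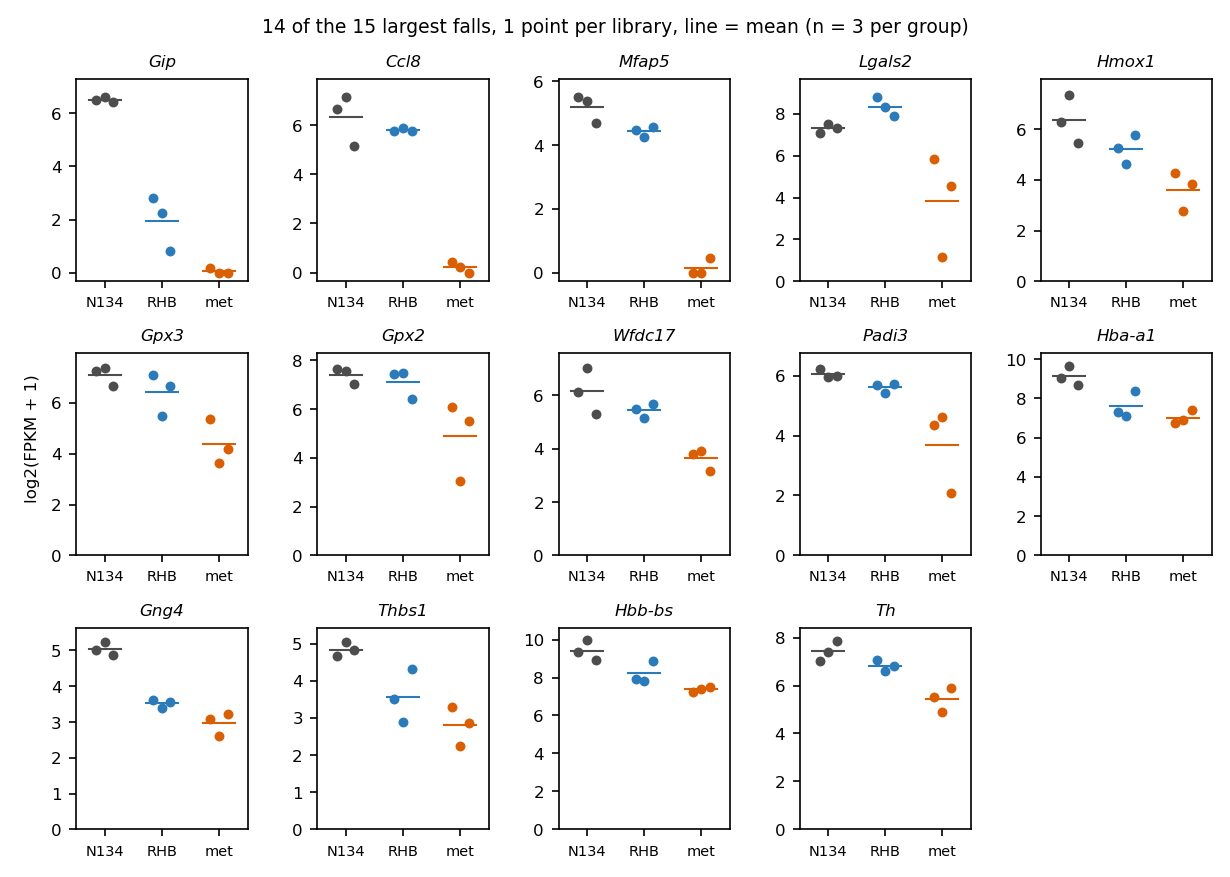
Levels of 14 of the 15 genes with the largest falls, as log2(FPKM + 1), 1 point per library, in N134 tumours (N134), N134-RHAMMB tumours (RHB) and liver metastases (met), with a line at the mean of 3 libraries. Gip was already low in N134-RHAMMB tumours, Ccl8 and Mfap5 were near 0 only in metastases, and Lgals2, Gpx2 and Padi3 have 1 metastasis far below the other 2.

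A further set of falls lay in genes that are not on a host cell list. Lgals2 encodes galectin-2, and N134 tumours held 136, 179 and 159 FPKM of it, N134-RHAMMB tumours 442, 316 and 237 FPKM, and metastases 55.6, 1.27 and 22.6 FPKM (-3.44, SE 0.89, adjusted p = 0.0359). The call was lost without any 1 of 7 libraries, all but metastases 1 and 2 (adjusted p up to 0.112), and the gene overlaps the coding gene Cdc42ep1. Padi3, a peptidylarginine deiminase, was at 73.1, 61.5 and 62.2 FPKM in N134 tumours against 19.7, 23.4 and 3.25 FPKM in metastases (-2.36, SE 0.52, adjusted p = 0.0154), and lost the call without N134 tumour 1 or 2 (adjusted p up to 0.0655). Metastasis 2 was the lowest for Lgals2 and metastasis 3 for Padi3.

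Gng4, a G protein gamma subunit, fell from 31.0, 36.8 and 28.1 to 7.51, 5.09 and 8.42 FPKM (-2.06, SE 0.18, adjusted p = 1.63e-05). Its N134-RHAMMB tumours stood at 11.2, 9.55 and 10.8 FPKM, lower than N134 tumours (-1.51, adjusted p = 0.0154), and metastases differed from them by -0.55 (adjusted p = 0.121). Plagl1, an imprinted zinc finger gene, showed values of the same order: 90.4, 68.2 and 84.6 FPKM, then 32.2, 31.3 and 36.4 FPKM, then 34.9, 26.0 and 16.2 FPKM in metastases (-1.68, adjusted p = 0.000674, and -1.25 with adjusted p = 0.076 between the lines). Slc38a5, a glutamine transporter and among the most abundant genes that fell, went from 2349, 2087 and 1692 to 962, 1066 and 1088 FPKM (-0.96, SE 0.14, adjusted p = 0.00117). Slc38a5 was at 1860, 1753 and 1506 FPKM in N134-RHAMMB tumours, above every metastasis (-0.71, adjusted p = 0.0109). Plagl1 and Slc38a5 are named here after their values were seen.

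Of 13 epithelial adhesion genes above the floor, 2 fell and none rose (median 0.03). Cd24a, which encodes the surface glycoprotein CD24, fell from 177, 195 and 183 to 47.1, 80.5 and 60.8 FPKM (-1.57, SE 0.17, adjusted p = 9.87e-05), with N134-RHAMMB tumours between them at 128, 116 and 106 FPKM. Metastases were lower than these too (-0.91, adjusted p = 0.00606). Vim, which encodes vimentin, an intermediate filament of mesenchymal cells, fell from 126, 178 and 112 to 43.1, 28.4 and 48.6 FPKM (-1.77, SE 0.24, adjusted p = 0.000572). Vim is the opposite marker on that list and is also made by fibroblasts, whose summed level is given below. Krt8, which encodes keratin 8, differed by 0.24 (adjusted p = 0.555), and the tetraspanin gene Cd9 by -0.94 (adjusted p = 0.0787).

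Genes of host stroma made up a share of the falls: 24 of the 60 listed members of host cell types fell and 5 rose, and 162 of the 186 falls were on no host list. In bulk tumour RNA, fewer cells of a type and less RNA per cell cannot be told apart. Of 16 fibroblast and matrix genes, 8 fell and none rose (median -0.86). All 26 genes of that list summed to 1379 to 1728 FPKM in N134 tumours, 517 to 968 in metastases and 744 to 1143 in tumours of N134-RHAMMB, with none at 0 throughout a group. With each library left out in turn, 4 to 9 of the 16 fell, fewest without N134 tumour 1.

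Mfap5, which encodes a microfibril protein of elastic connective tissue, fell from 43.9, 40.5 and 25 FPKM to 0.36 FPKM in metastasis 3 and was listed at 0 in metastases 1 and 2 (-5.04, SE 0.22, adjusted p = 7.12e-08). In N134-RHAMMB tumours it was at 21, 18.1 and 22.9 FPKM, well above metastases (-4.28, adjusted p = 2.38e-07). Collagen genes fell less far. Col5a2 went from 40.4, 42.6 and 27.9 to 11.7, 4.53 and 12.5 FPKM (-1.93, SE 0.32, adjusted p = 0.00257). Col6a1 went from 29.2, 29.1 and 22.3 to 9.50, 5.94 and 7.14 FPKM (-1.72, SE 0.20, adjusted p = 0.000211). Col1a2 went from 122, 107 and 87.4 to 40.5, 15.4 and 39.6 FPKM (-1.80, adjusted p = 0.0101), a call lost without N134 tumour 1 (adjusted p = 0.0513). Metastasis 2 was the lowest in all 3 collagens.

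A secreted gene of wound and clot biology fell beside them. Thbs1 encodes thrombospondin-1, and N134 tumours held 24.4, 31.8 and 27.2 FPKM of it, N134-RHAMMB tumours 10.3, 6.42 and 19.1 FPKM and metastases 8.80, 3.75 and 6.31 FPKM (-2.04, SE 0.35, adjusted p = 0.00328). Its N134-RHAMMB tumours overlapped with the metastases and not with the N134 tumours, and neither comparison with them passed.

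Macrophage genes fell as well, apart from Apoe. Of 13 above the floor, 10 fell and 1 rose (median -1.10). With each library left out, 5 to 12 fell, fewest without metastasis 3 or N134 tumour 2. Without Apoe, which hepatocytes also make, the other 27 genes of the list summed to 1201 to 2075 FPKM in N134 tumours, 636 to 996 in metastases and 905 to 1177 in tumours of N134-RHAMMB. Ccl8, a chemokine that macrophages secrete, fell from 101, 139 and 34.5 FPKM to 0.367 and 0.171 FPKM in metastases 1 and 2 and was listed at 0 in metastasis 3 (-6.09, SE 0.40, adjusted p = 1.69e-06). In N134-RHAMMB tumours it held 53.8, 58.8 and 53.3 FPKM, and metastases were far below these (-5.59, adjusted p = 3.54e-06). Wfdc17, a secreted protein of activated macrophages, fell from 69.4, 128 and 37.9 to 13.1, 14.2 and 8.01 FPKM (-2.51, SE 0.37, adjusted p = 0.00122), and was lower than in N134-RHAMMB tumours too (-1.80, adjusted p = 0.0134).

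General macrophage markers fell by less. Cd68, a lysosomal protein, went from 45.4, 61.2 and 28.9 to 23.5, 12.3 and 13.4 FPKM (-1.40, SE 0.28, adjusted p = 0.00958). Lyz2, which encodes lysozyme, went from 179, 300 and 175 to 124, 57.5 and 73.4 FPKM (-1.37, adjusted p = 0.0142), and lost the call without N134 tumour 2 or metastasis 3 (adjusted p up to 0.0589). Tyrobp, a signalling adaptor, differed by -1.32 (adjusted p = 0.0179) and lost the call without N134 tumour 1, N134 tumour 2 or metastasis 3 (adjusted p up to 0.0765). Ccl8 thus fell to near 0 while Cd68, Lyz2 and Tyrobp still stood at 12.3 FPKM or more in every metastasis. N134 tumour 2 was the highest library for Ccl8, Wfdc17, Cd68 and Lyz2.

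The 3 erythroid genes above the floor all fell, in every setting with 1 library left out. Hba-a1, an alpha globin, went from 521, 807 and 415 to 108, 120 and 167 FPKM (-2.10, SE 0.34, adjusted p = 0.00212). Hbb-bs, a beta globin, went from 643, 1017 and 487 to 152, 168 and 183 FPKM (-2.02, SE 0.30, adjusted p = 0.00123), and Hbb-bt differed by -1.96 (adjusted p = 0.000417). Globin genes have near-identical copies, so their separate values are uncertain. The 7 genes of the list summed to 973 to 1947 FPKM in N134 tumours, 283 to 383 in metastases and 397 to 862 in tumours of N134-RHAMMB. Fabp4, the fatty acid binding protein of adipocytes, fell from 55.4, 45.8 and 46.4 to 13.1, 19.2 and 18.6 FPKM (-1.50, SE 0.29, adjusted p = 0.00669). Its list of 11 genes summed to 74.0 to 114 FPKM in N134 tumours, 37.4 to 64.8 in metastases and 57.5 to 148 in tumours of N134-RHAMMB. Of that list, Adipoq and Plin1 were at 0 in all metastases, but held 5.26 FPKM or less in N134 tumours. Under the floor, Adipoq, Cfd, Cidec and Lipe fell in limma, while Lpl (-0.04) and Car3 (0.66) did not pass. Mcam, a pericyte and endothelial adhesion molecule, differed by -0.93 (adjusted p = 0.00822), 1 of 5 pericyte and smooth muscle genes to fall, while Acta2 was at 74.2, 30.3 and 73.9 FPKM in metastases (-0.55, adjusted p = 0.443).

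**Figure D4:**
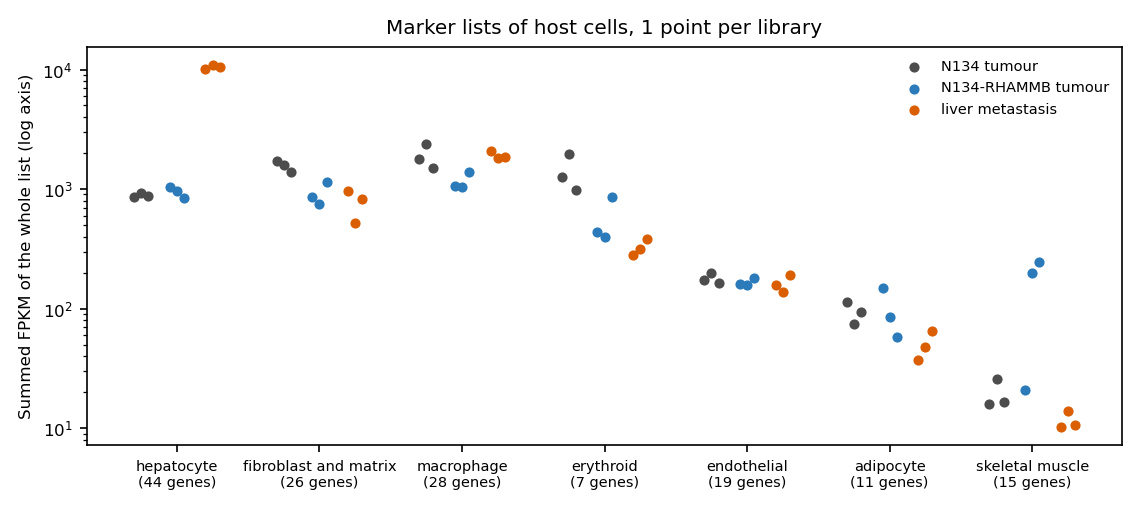
Summed FPKM of marker lists of host cells (y axis, log scale) in each library, 1 point per library, grouped by list along the x axis, with all listed genes in the sum whether or not they reached the floor. Hepatocyte genes summed to 10057 to 10889 FPKM in metastases and below 1048 elsewhere, while fibroblast and erythroid sums were highest in N134 tumours, and the macrophage sum shown includes Apoe.

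The rises among the 3844 genes were led by genes that are abundant in liver. Alb, below the floor with 1.14 to 1.60 FPKM in N134 tumours, reached 1410.4 to 1609 FPKM in metastases, and the hepatocyte list summed as given above. Of 6 hepatocyte genes at the floor, 3 rose and none fell (median 0.65): Gstm1, Ambp and Serpina1a. Ambp, which encodes the precursor of alpha-1-microglobulin and bikunin, went from 34.9, 53.5 and 88.3 to 148, 190 and 159 FPKM (1.57, SE 0.31, adjusted p = 0.00876). Serpina1a, an alpha-1-antitrypsin gene with near-identical copies, differed by 0.91 (adjusted p = 0.0457), a call lost in 8 of 9 settings with 1 library left out (adjusted p up to 0.162). Ttr, which encodes transthyretin and is made by islets and liver alike, was at 416, 427 and 334 FPKM in N134 tumours against 574, 480 and 487 FPKM in metastases (0.39, adjusted p = 0.139). The part of liver RNA in the rises was not tested.

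Apoe, which encodes a lipoprotein made by hepatocytes and macrophages, reached 254, 293 and 301 FPKM in N134 tumours and 1097, 1199 and 1200 FPKM in metastases, while N134-RHAMMB tumours held 109, 133 and 203 FPKM (2.04, SE 0.19, adjusted p = 3.29e-05). Cyb5a, which encodes cytochrome b5, an electron donor of the endoplasmic reticulum, went from 33.1, 37.3 and 34.6 to 132, 167 and 140 FPKM (2.03, SE 0.12, adjusted p = 6.05e-07). For both, N134-RHAMMB tumours were below the N134 tumours, so the difference within the line was larger: 3.01 for Apoe (adjusted p = 1.31e-06) and 2.51 for Cyb5a (adjusted p = 1.18e-07).

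Scp2, Adh1, Phyh, Marc2 and Adk, which encode metabolic enzymes, were also among the 15 largest rises. Scp2, a peroxisomal thiolase and sterol carrier, went from 28.7, 29.8 and 24.0 FPKM in N134 and 27.9, 29.5 and 24.1 FPKM in N134-RHAMMB tumours to 89.7, 108 and 108 FPKM in metastases (1.85, SE 0.13, adjusted p = 2.53e-06), and overlaps Podn. Adh1, an alcohol dehydrogenase, was at 64.9, 72.2 and 49.0, then 71.4, 53.2 and 67.9, then 160, 175 and 174 FPKM (1.45, SE 0.15, adjusted p = 9.97e-05). Phyh, the peroxisomal phytanoyl-CoA hydroxylase, was at 39.7, 31.5 and 34.3, then 39.4, 32.8 and 40.1, then 81.2, 89.1 and 87.7 FPKM (1.27, SE 0.12, adjusted p = 3.29e-05). In Scp2, Adh1 and Phyh the 2 groups of subcutaneous tumours overlapped and lay below every metastasis. Marc2, a molybdenum enzyme of the mitochondrial membrane, differed by 1.14 (SE 0.13, adjusted p = 0.000132), and Adk, adenosine kinase, by 0.99 (SE 0.12, adjusted p = 0.000237). N134-RHAMMB tumours held 37.7, 35.9 and 33.4 FPKM of Marc2, against 27.0, 35.4 and 33.4 FPKM in N134 tumours, and 28.3, 30.5 and 28.3 FPKM of Adk, all above the N134 tumours at 24.6, 22.3 and 23.1 FPKM.

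The other leading rises were secreted or membrane proteins. Rnase4, a secreted ribonuclease that shares its locus with Ang, went from 37.1, 40.1 and 29.1 to 106, 75.0 and 103 FPKM (1.39, SE 0.15, adjusted p = 0.000148). Ly6e, a membrane-anchored protein, went from 137, 121 and 108 to 231, 244 and 228 FPKM (0.94, SE 0.10, adjusted p = 0.000109). Tmem176b, which overlaps Tmem176a, differed by 0.99 (adjusted p = 0.000668). Il1r1, the receptor of interleukin-1, was at 93.6, 73.8 and 82.1 FPKM in N134 tumours against 153, 239 and 123 FPKM in metastases (0.99, SE 0.20, adjusted p = 0.0103), a call lost without N134 tumour 2 (adjusted p = 0.0519). Of 12 antigen presentation and interferon genes, B2m, the light chain of class I molecules, was the only call: 258, 306 and 203 against 365, 465 and 377 FPKM (0.66, SE 0.16, adjusted p = 0.0256). It was lost without N134 tumour 1, N134 tumour 3 or metastasis 2 (adjusted p up to 0.0905), and B2m overlaps Patl2. Across the 15 largest rises, 14 passed with every single library left out, and across the 15 largest falls, 12 did.

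**Figure D5:**
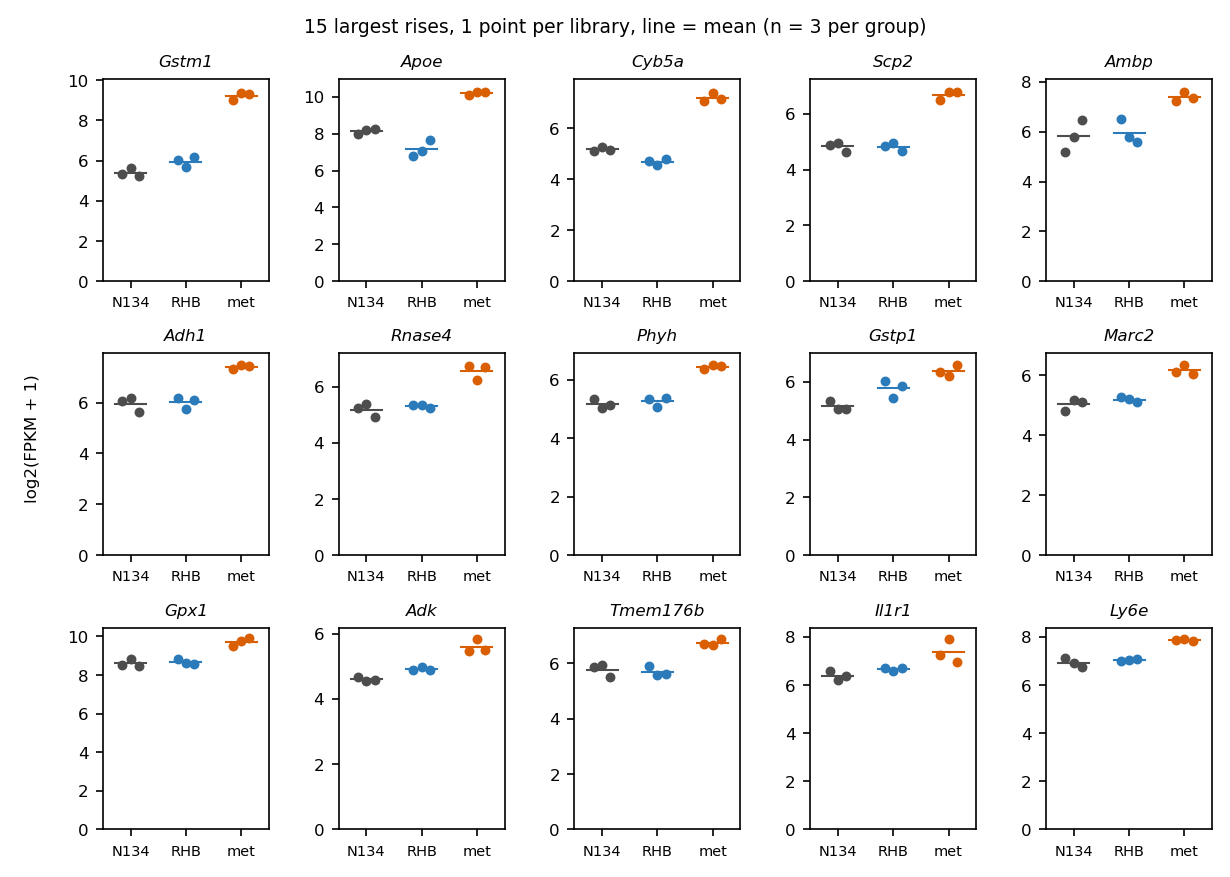
Levels of the 15 genes with the largest rises, as log2(FPKM + 1), 1 point per library, in N134 tumours (N134), N134-RHAMMB tumours (RHB) and liver metastases (met), with a line at the mean of 3 libraries. In Scp2, Adh1, Phyh and Gpx1 all 6 subcutaneous tumours lie together below the metastases, and in Apoe and Cyb5a the N134-RHAMMB tumours are the lowest group.

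Lists of genes for growth and energy gave few calls. None of 77 cytosolic ribosomal protein genes passed in limma (3 higher and 5 lower at an unadjusted p under 0.05, median -0.01), and Rpl13a was at 1528, 1910 and 1844 FPKM in N134 tumours against 1099, 2141 and 1128 FPKM in metastases (-0.34, adjusted p = 0.457). Without metastasis 2, 6 of the 77 were lower. Of 47 mitochondrial ribosomal protein genes, Mrpl34 rose from 40.2, 39.7 and 38.9 to 50.7, 56.5 and 60.2 FPKM (0.48, SE 0.10, adjusted p = 0.00881), and its N134-RHAMMB tumours were as high at 65.3, 59.3 and 60.6 FPKM. Of 72 subunits of oxidative phosphorylation, 1 rose and 2 fell (median -0.01). Uqcrfs1, the iron-sulfur protein of the third respiratory complex, fell from 66.6, 63.9 and 62.4 to 45.4, 49.1 and 46.2 FPKM (-0.45, SE 0.09, adjusted p = 0.00921). The calls of Ndufa2 (-0.36) and Ndufa13 (0.33), subunits of the first complex, were each lost in 8 of 9 settings with 1 library left out.

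Glycolysis, mitosis and proteasome lists leaned lower by small amounts. Of 11 glycolysis and hypoxia genes 3 fell (median -0.37), among them Pkm, pyruvate kinase, from 264, 296 and 239 to 196, 213 and 153 FPKM (-0.51, adjusted p = 0.0387) and Pfkl, liver-type phosphofructokinase (-0.52, adjusted p = 0.0333). With 1 library left out, 0 to 4 of the 11 fell in limma, and none fell without N134 tumour 1, N134 tumour 2, N134-RHAMMB tumour 1 or metastasis 3 (5 to 6 at an unadjusted p under 0.05). Of 29 mitosis genes 4 fell (median -0.20), and 28 of the 29 differences were below 0. Cdk1, the mitotic kinase, fell from 181, 185 and 220 to 130, 143 and 128 FPKM (-0.54, SE 0.11, adjusted p = 0.00999), a call lost with median-of-ratios scaling (adjusted p = 0.067). It was kept with each library left out. Also lower was the kinesin gene Kif22, from 69.5, 80.5 and 72.7 to 56.0, 46.5 and 53.9 FPKM (-0.50, adjusted p = 0.012), a call lost without N134 tumour 2 (adjusted p = 0.0622). Left-out libraries gave 2 to 6 mitosis calls, fewest without N134 tumour 1 or 3. Of 30 DNA replication genes Gmnn alone fell (median -0.04). Gmnn, which encodes geminin, the brake on licensing of origins, went from 43.5, 41.6 and 44.4 to 25.4, 26.0 and 26.1 FPKM (-0.72, SE 0.09, adjusted p = 0.000422), with N134-RHAMMB tumours at 28.4, 27.4 and 30.5 FPKM.

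Of 36 proteasome subunits 5 fell (median -0.16), such as Psmc1, an ATPase of the cap, from 85.0, 79.3 and 78.2 to 66.1, 56.8 and 61.1 FPKM (-0.39, SE 0.09, adjusted p = 0.0216). The count ran from 0, without metastasis 3 or any of the N134 tumours (8 to 9 at an unadjusted p under 0.05 in limma), to 9, without metastasis 2. It was 1 with median-of-ratios scaling over the 3844 genes. The glycolysis count was 0 under that scaling (5 at an unadjusted p under 0.05). Cholesterol synthesis (13 genes), amino acid metabolism (10), chaperones (14), ERK and STAT3 pathway genes (6) and the immediate-early gene Jund gave no call in limma. At an unadjusted p under 0.05 these were 0, 3, 3, 0 and 0 genes. Hmgcs1, of cholesterol synthesis, was at 45.4, 75.8 and 26.6 FPKM in metastases (0.53, adjusted p = 0.378), and Hsp90aa1 at 652, 766 and 536 FPKM (-0.30, adjusted p = 0.255).

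The comparisons that keep the line or the site the same gave fewer calls, except with library weights, which reversed that order. Between metastases and N134-RHAMMB tumours, both of the same line, 100 of the 3844 genes passed (background 6.56%). Of these, 36 were higher (background 5.04%) and 64 lower (background 1.52%). The floor used neither group but left out genes low in N134 tumours, so this split too is in part set by that choice. That split depended on the scaling and on single libraries: it was 45 and 46 with median-of-ratios scaling, 55 and 38 with that scaling over the 3844 genes, and 24 and 21 without N134-RHAMMB tumour 1. Between the lines under the skin, 7 passed (background 0.194%), with Mrpl34 higher (background 0.0778%) and Gip, Gng4, Ero1lb, Gmnn, Rprml and Dcn lower (background 0.117%). Rprml, a relative of the cell cycle gene reprimo, differed by -0.78 between the lines, and Dcn, which encodes the fibroblast proteoglycan decorin, by -1.07. Both are named because they were among the 7. The 3 comparisons share libraries, so no overlap between them is given. Without any of the N134 tumours no gene passed between the lines in limma (359 to 446 at an unadjusted p under 0.05, beside 570 with all libraries), and without metastasis 2, which enters only the estimate of spread, 66 passed. N134-RHAMMB tumours 2 and 4 held 199 and 246 FPKM over 15 skeletal muscle genes, against 20.6 FPKM in N134-RHAMMB tumour 1, 15.9 to 25.6 FPKM in N134 tumours and 10.2 to 13.9 FPKM in metastases. Without both of them N134-RHAMMB tumours are 1 library, assumed to vary like the other groups. The count between metastases and that library was 29 (17 higher and 12 lower), and that between metastases and N134 tumours 32 higher and 111 lower.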

How the data were processed

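Total RNA of 9 mouse tumour samples was sequenced in 3 groups of 3 libraries. The authors deposited 1 table of FPKM values with a status word per value, per the file headers. Cufflinks 2.1.1, STAR 2.5.2 and bcl2fastq 2.19 are named with build GRCm38, per the submitters' processing notes. No source used here gives the kit or strand setting, so overlapping and near-identical genes have uncertain values. Of 22053 rows, 7 with a failed estimate and 102 that repeated a symbol were dropped, which left 21944 genes. The 12854 genes at 1 FPKM or more in at least 3 libraries were tested, and all 3844 genes at the floor of 20 FPKM are among them, 1 with low-data status. The test was limma 3.58.1 in R 4.3.3 on log2(FPKM + 1), with a pseudocount of 1, an intensity trend and 1 fit over the 9 libraries. It was two-sided at a threshold of 0.05 after Benjamini-Hochberg adjustment across every gene tested, and was tested on simulated data. FPKM is relative to the library, so a level falls when other transcripts take more of it.

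Depth was estimated from the FPKM of single fragments in genes with 1 transcript of 2000 to 6000 nucleotides. Gene coordinates (GRCm38) come from the table, whose starts were shifted by 1 base to count from 1. Promoter windows are from RefSeq (GRCm38.p6). Genes named are the 15 largest rises and 15 largest falls among passing genes whose groups did not overlap, the 5 most abundant, Hmmr, the 3 genes nearest each side of the floor, and 2 to 4 genes with the largest absolute difference per list. Names that are only clone numbers were passed over, and some genes that the rules select are not reported here. The 3844 genes, the gene lists and these rules were chosen with earlier results of these data known. Alternatives were another pseudocount, other filters, scalings, floors and variance models, the replicate number as a block and each library left out. Figures were drawn in Python 3.11.15 with matplotlib 3.10.9.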

Additional observations from a re-analysis of the deposited data

How the results depend on the processing

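Of 126 genes named by the rules or singled out, none with a call between metastases and N134 tumours changed direction under any of 20 alternatives. Of the 30 largest rises and falls, 26 passed with every single library left out and 28 under every other alternative. The counts among the 3844 genes, 58 higher, 186 lower, 100 called against N134-RHAMMB tumours and 7 called between the lines, were less stable. Leaving out each library gave 27 to 108 higher, 77 to 268 lower, 45 to 224 and 0 to 66. Without N134 tumour 1, 2 or 3 the higher counts were 39, 31 and 27 and the lower counts 77, 93 and 111. Fits of only the 2 groups compared gave 32, 111, 57 and 62, and library weights gave 102, 287, 582 and 957. With those weights the comparison of metastases with N134 tumours had the fewest calls, 389. Scaling over the 3844 genes gave 92 higher. Without a filter 4 genes passed between the lines, and without the intensity trend 2. A floor of 10 FPKM gave 102 higher and 164 against N134-RHAMMB tumours, and a floor of 40 FPKM gave 17, 109, 42 and 3. A mean of 20 FPKM over all libraries gave 122 higher and 159 against N134-RHAMMB tumours. Leaving out N134-RHAMMB tumours 2 and 4, chosen after seeing the data, gave 32, 111, 29 and 1, with 1 library left in that group. Apart from fewer samples or genes, the cause of these shifts was not tested. All other counts were within 1.5 times.

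Same-numbered libraries did not deviate together (r across genes -0.0027 to 0.0549, other pairs -0.0873 to 0.0817), so the numbers do not show a pairing. With the replicate number as a block the counts were 38 higher, 138 lower, 53 and 1.

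FPKM alone gives no counting interval. At the floor a level in a transcript of 2 kb rests on 585 to 736 fragments, while values below 1 FPKM, such as Gip in metastases, rest on few.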

Other observations

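Some gene families outside the lists above also held calls among the 3844 genes, and they were picked after their values were seen, so their counts are descriptions. Beside them, 1.51% of the 3844 genes passed as higher and 4.84% as lower in limma. Over all genes tested the shares were 5.69% and 4.23%. Of 12 peroxisomal genes 5 rose in metastases and none fell (median 0.18). Beside Scp2 and Phyh they include the reductase gene Dhrs4, from 28.1 ± 3.21 to 39.0 ± 5.41 FPKM (SD, n = 3 each), and Idh1, the cytosolic and peroxisomal isocitrate dehydrogenase. With 1 library left out 3 to 4 of the 12 rose. Of 4 haem synthesis genes 2 rose: Alas1, the rate-limiting enzyme in liver, from 23.6 ± 2.42 to 39.2 ± 1.29 FPKM, and Alad, the next enzyme, from 25.7 ± 4.34 to 44.1 ± 4.53 FPKM. All of these are known to be abundant in liver too, and the hepatocyte sum was higher in metastases, as given above. The part of liver RNA in them was not tested.

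Of 6 annexin genes, which encode calcium-dependent membrane-binding proteins, 3 fell (median -0.55), with Anxa2 from 59.7 ± 15.8 to 29.2 ± 5.48 FPKM, and 1 to 3 fell with a library left out. Of 57 histone genes 5 fell and none rose (median -0.32), among them the linker histone gene Hist1h1e, from 945 ± 57.2 to 670 ± 111 FPKM. That histone count ran from 0 to 16 with single libraries left out and was 0 with scaling over the 3844 genes (12 lower at an unadjusted p under 0.05 in limma). Of 19 Sm and LSm genes of the spliceosome 3 fell (median -0.16), with 0 to 4 when a library was left out. Of 8 tubulin genes Tubb2a fell, from 75.7 ± 3.92 to 47.7 ± 11.8 FPKM, a call lost without N134 tumour 1 or 2.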
